A study of Danio rerio with 15 samples.

Results

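The PI3K, Akt and mTOR pathway carries signals from growth factor receptors and from Ras to cell growth and protein synthesis. Class I PI3 kinases make the membrane lipid PIP3, lipid phosphatases take it apart again, and Akt kinases that bind PIP3 are activated by PDPK1 and mTORC2. Akt then relieves the brake that the TSC complex puts on the small GTPase Rheb, which switches on the mTOR kinase in mTORC1. Because active Ras also binds PI3K catalytic subunits, transcripts of this pathway were examined in zebrafish brain tumors driven by NRAS.

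The core genes described here were pik3ca, akt1, akt2, mtor, rptor and tsc2, found by symbol without regard to case in a table of 22513 genes. They gave 7 IDs, all of which were tested, since the symbol akt2 stood for 2 IDs, akt2 copy 1 (ENSDARG00000011219) and akt2 copy 2 (ENSDARG00000103612). The other IDs were PIK3CA (ENSDARG00000075456), akt1 (ENSDARG00000099657), MTOR (ENSDARG00000053196), RPTOR (ENSDARG00000098726) and TSC2 (ENSDARG00000103125).

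RNA selected with oligo dT of 7 brain tumors and of 8 normal whole brains of zebrafish was sequenced as single reads. The submitters call the tumors NRAS-driven CNS-PNET, an embryonal kind of brain tumor. The sources used here do not name the promoter that drives NRAS, nor the strain, age or further alleles of either group. They also leave unsaid whether each library is 1 fish, so p-values measure the spread between these samples. Libraries keep the submitters' numbers, 5, 6, 7, 8, 12, 13 and 14 for tumors and 1, 2, 3, 4, 9, 10, 11 and 15 for normal brain.

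Libraries held 13605588 to 21347976 counts, so that 3 counts, the limit that a count of 0 allows, came to 0.141 to 0.22 counts per 1000000 (CPM). This limit covers counting error only, and each core gene had at least 67 counts in each library. The zebrafish gene NRAS (ENSDARG00000038225) had 7.49 to 10.8 CPM in normal brain and 21.2 to 46.2 CPM in tumors, and whether transcripts of the driving NRAS are counted under this ID was not tested. Normal brain 1 carried liver transcripts, with a summed level of 6 liver markers of 7643.9 CPM against 122.8 to 282.6 in the other normal brains. Normal brain 2 carried photoreceptor and normal brain 4 skin transcripts, with sums of 119.8 and 4435.5 CPM. Brain tumors 5, 6, 12 and 14 had muscle marker sums of 412.8, 493.3, 446.0 and 899.8 CPM. The other tumors had 10.3 to 58.2 and normal brains 6.39 to 84.8. Skin sums were 290.3 to 1796.2 CPM in tumors and 79.6 to 368.6 in the normal brains other than 4. The source of these transcripts was not tested. The 11 neuronal markers were all lower in tumors, with sums of 8958.2 to 10331.9 CPM in normal brain and 553.1 to 2464.6 in tumors, the lowest in brain tumor 13. The 8 oligodendrocyte lineage markers were higher in 7 cases and lower in 1, the 6 microglial markers were all higher, with sums of 160.4 to 402.0 CPM in normal brain and 1044.0 to 2216.6 in tumors, and the 6 markers of dividing cells were all higher. No marker was at 0 in all libraries of a group. In whole tissue, fewer cells of a type and less RNA per cell cannot be told apart.

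Counts were compared with edgeR's quasi-likelihood test after TMM scaling, a trimmed mean of log ratios, with p-values adjusted over all 19260 tested genes and a threshold of 0.05. Small shifts depend on the scaling: the median log2 fold change over all genes was 0.21 with TMM and 0.02 with median-ratio factors. Each core gene's change is therefore also given relative to that median of 0.21.

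The 7 core gene IDs described here each changed by less than 2-fold in this fit. A further 5 IDs of the pathway are not reported here. Of the 7 IDs 2 were higher in tumors (akt1 and akt2 copy 1), 1 was lower (RPTOR) and 4 did not pass (PIK3CA, akt2 copy 2, MTOR and TSC2). That is 42.9% of the IDs, where 76.9% of all tested genes passed, 43.5% as higher and 33.4% as lower. These shares of all genes are also the background for the list counts that follow. The largest absolute log2 fold change among them was 0.91, whereas 52.3% of all genes were called with a change of at least 2-fold. Their median was -0.03. In 2 of them the groups did not overlap (akt2 copy 1 above and RPTOR below), against 51.9% of all genes (27.2% above and 24.6% below). With median-ratio factors, which called 75.4% of all genes, the 3 calls held, and PIK3CA and TSC2 were called lower as well. DESeq2, with 77.1% of all genes called, also called those 2 lower. In both, 2 of the 7 IDs were higher and 3 lower, a share nearer to that of all genes. The lower count was 3 without normal brain 1 or 4 and 2 without normal brain 2 or 11 or brain tumor 8, 13 or 14. The higher count was 3 without normal brain 1, where akt2 copy 2 passed as well (0.63, edgeR adjusted p = 0.0189). It was 2 without any other library. The share of 42.9% thus depended on the scaling and on the libraries used.

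**Figure D1:**
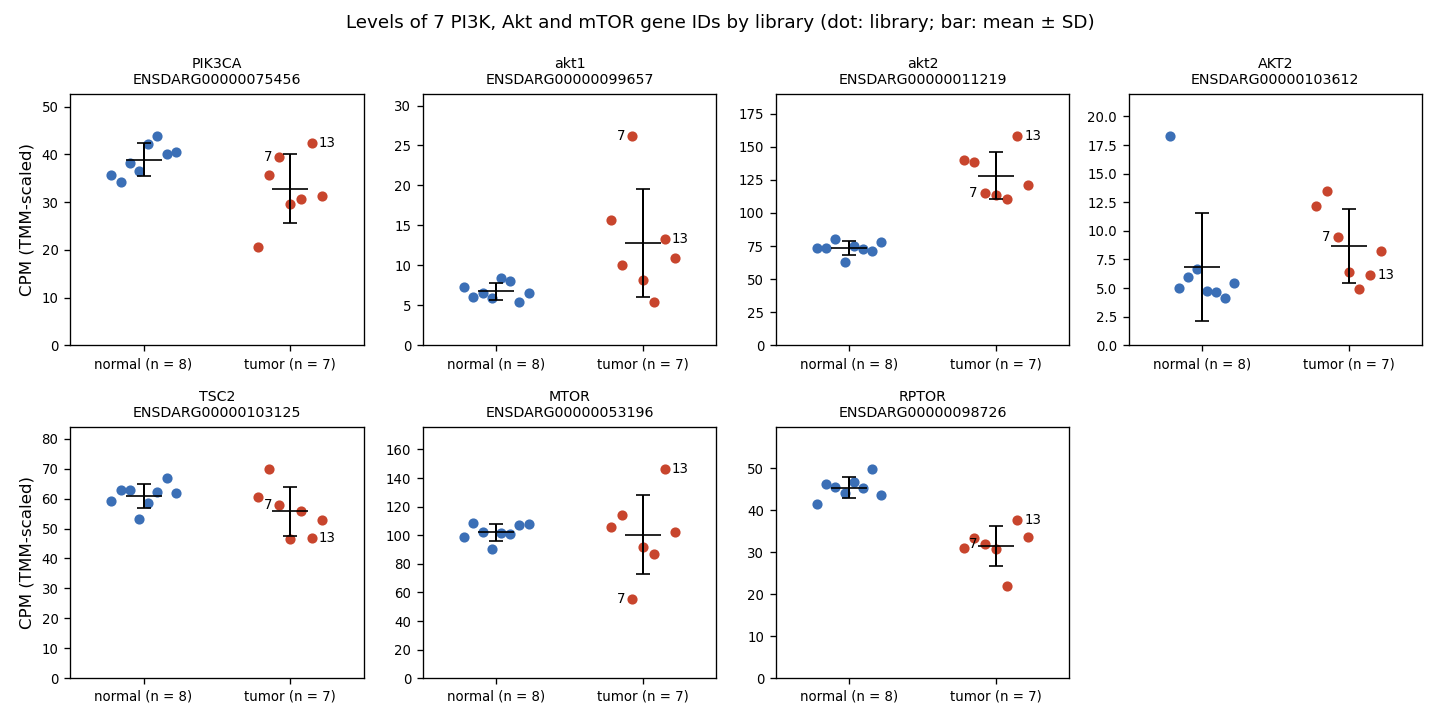
Level of each core gene ID in every library, in CPM on a linear axis from 0. Dots are libraries in the order of their numbers (blue normal brain, red tumor), bars are mean ± SD, and tumors 7 and 13 are numbered. The tumors lie wholly below normal brain in RPTOR and wholly above it in akt2 copy 1, and spread widely in akt1 and MTOR.

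PIK3CA encodes p110 alpha, a catalytic subunit of class I PI3 kinase. It ranged from 34.2 to 43.9 CPM in normal brain (median 39.2) and from 20.6 to 42.4 in tumors (median 31.2). Brain tumor 5 was the lowest and 4 of 7 tumors lay below each normal brain, while the others overlapped with it. The log2 fold change of -0.25 ± 0.13 (SE) did not pass (edgeR adjusted p = 0.0911), and it was -0.46 relative to the median gene. It did pass with median-ratio factors (-0.44, adjusted p = 0.00591) and without any 1 of brain tumors 8, 13 and 14 or normal brains 1, 2, 4 and 11 (-0.38 to -0.31, adjusted p of 0.0203 to 0.0459).

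The other class I catalytic genes all passed the test, with larger estimates than that of PIK3CA. PIK3CB, which encodes p110 beta, ranged from 20.2 to 29.3 CPM in normal brain (median 26.1) and from 125.6 to 272.4 in tumors (median 168.3). Each tumor was thus far above each normal brain, with a log2 fold change of 2.87 ± 0.17 (edgeR adjusted p = 6.11e-10). PIK3CD, which encodes p110 delta, went the other way, from 47.4 to 65.5 CPM in normal brain (median 51.0) to 5.67 to 32.3 in tumors (median 17.3), a log2 fold change of -1.67 ± 0.25 (adjusted p = 1.49e-05). PIK3CG, p110 gamma, rose modestly, by 0.67 ± 0.10 (adjusted p = 1.83e-05). Per length, as shares of the summed FPKM of the 4 genes in a library, PIK3CB took 16.4% ± 2.1 (SD, n = 8 normal brains) and then 64.3% ± 7.37 (SD, n = 7 tumors). The share of PIK3CD went from 36.1% ± 3.79 to 6.53% ± 3.26 and that of PIK3CA from a range of 28.0% to 33.8% to one of 8.07% to 19.4%. The summed FPKM of the 4 was 29.7 in normal brain and 49.9 in tumors. In it PIK3CB went from 4.85 to 32.5 and PIK3CA from 9.39 to 7.29. The share of PIK3CA thus fell by more than its level, since the sum rose with PIK3CB.

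Of 15 further PI3K subunit genes, PIK3CB, PIK3CD and PIK3CG included, 7 were higher, 6 lower and 2 (a copy of PIK3R3, and pik3c2g) missed the threshold. The median was 0.15. PIK3R5, a regulatory subunit that pairs with p110 gamma, rose, with 1.61 ± 0.467 CPM in normal brain and 6.36 ± 1.71 in tumors (1.98 ± 0.22 on the log2 scale). The microglial markers rose in the same tumors, as did PIK3CG and PIK3R5, while PIK3CD fell. The neuronal markers also fell. Among tumors PIK3CD and the neuronal sum were both lowest in brain tumor 13 and highest in brain tumor 8. The part of microglia and of neurons in these values was not tested. PIK3R1, the p85 alpha subunit that holds the catalytic subunit at receptors, fell from 328.6 ± 23.8 to 173.4 ± 59.1 (log2 fold change -0.92 ± 0.17). PIK3C2B, a class II kinase, fell as well (-0.92 ± 0.11). Within a library the FPKM ratio of PIK3CA to PIK3R1 was 0.154 in normal brain and 0.252 in tumors (geometric means), a log2 difference of 0.71, with 6 of 7 tumors above each normal brain (exact permutation test over 6435 splits, two-sided, p = 0.00202, adjusted over 9 ratios 0.00524). Without 4 libraries the difference was 0.42 and did not pass (exact permutation test, adjusted p = 0.0974). They were normal brains 1, 2 and 4, which carried other tissues, and brain tumor 13. The tumors with high muscle sums were kept in that subset. Brain tumor 13 had the fewest detected genes (20458) and the highest log2 ratio, -0.91 against -2.62 to -1.73 in the other tumors. Without this tumor alone the difference was 0.53 and passed (exact permutation test, adjusted p = 0.0105).

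**Figure D2:**
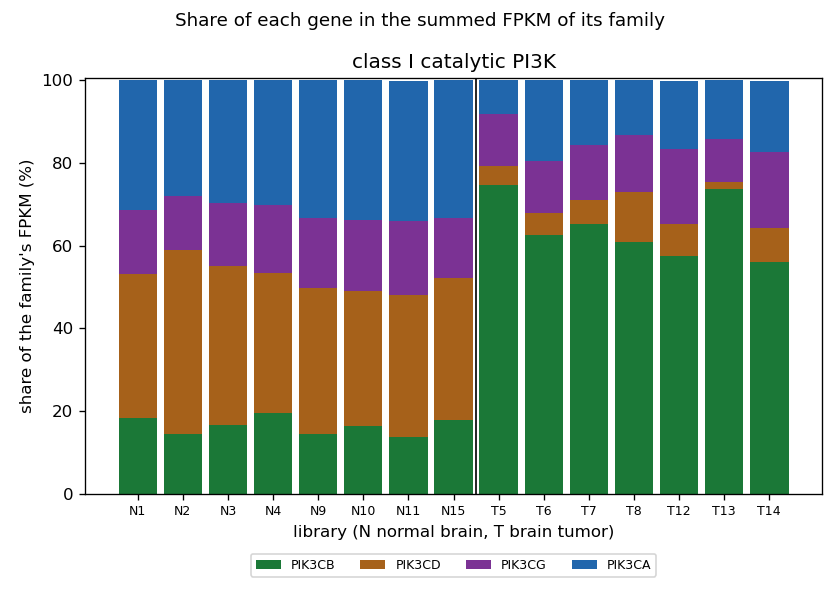
Share of each class I catalytic PI3K gene in their summed FPKM (percent, stacked to 100%) in each library. The black line separates normal brains (N) from tumors (T). PIK3CB takes 56.1% to 74.6% in tumors against 13.7% to 19.5% in normal brain.

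Phosphatases that act on PI3K lipids or Akt split, with 5 of 11 higher, 5 lower and 1 not past the threshold (a copy of INPP5K). INPPL1 (SHIP2), which removes the 5-phosphate of PIP3, rose from 21.1 ± 2.74 to 134.0 ± 67.2 CPM (log2 fold change 2.67 ± 0.22, edgeR adjusted p = 2.61e-08), and INPP5E, a 5-phosphatase of primary cilia, rose by 1.30 ± 0.14. Lower were the 4-phosphatase genes INPP4A (ENSDARG00000063352, -1.56 ± 0.10) and INPP4B (-0.92 ± 0.12), which act on PI(3,4)P2. INPP4A fell from 125.8 ± 7.48 to 42.5 ± 7.04 CPM.

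Among the Akt kinases described here, transcripts of akt1 and akt2 copy 1 were higher in tumors and akt2 copy 2 did not pass. Akt1 serves growth and survival in many tissues, and Akt2 is known for insulin action in mammals.

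akt2 copy 1 ranged from 63.0 to 80.3 CPM in normal brain (median 73.4) and from 110.4 to 158.2 in tumors (median 121.0). Groups did not overlap, and the log2 fold change was 0.80 ± 0.09 (edgeR adjusted p = 8.99e-07), or 0.59 relative to the median gene. akt2 copy 2 was scarce, at 4.1 to 18.3 CPM in normal brain (median 5.21) and 4.91 to 13.5 in tumors (median 8.22). Its top value came from normal brain 1, the library with liver transcripts, and the other 7 normal brains had at most 6.68 CPM. The log2 fold change of 0.34 ± 0.33 did not pass (edgeR adjusted p = 0.347), and it was 0.13 relative to the median gene. Without normal brain 1 the log2 fold change was 0.63 and passed (edgeR adjusted p = 0.0189).

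akt1 had 5.44 to 8.46 CPM in normal brain (median 6.53) and 5.44 to 26.2 in tumors (median 10.9). Brain tumor 7 was the highest, 5 tumors lay above each normal brain, and brain tumors 8 and 12 lay within its range. The log2 fold change was 0.91 ± 0.26 (edgeR adjusted p = 0.00422), or 0.70 relative to the median gene. Among the libraries numbered 1 to 8 it was 1.21 (adjusted p = 0.0138), and among those numbered 9 to 15 it was 0.32 and did not pass (adjusted p = 0.416).

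A ratio within a library needs no scaling. The FPKM ratio of akt1 to the akt2 copies was 0.192 in normal brain and 0.198 in tumors, a difference of 0.04 on the log2 scale that did not pass (exact permutation test, adjusted over 9 ratios p = 0.984). Among tumors its log2 values spread from -3.15 (brain tumor 12) to -1.04 (brain tumor 7), a range that took in that of normal brain.

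Akt's activators and substrates, listed together with the SGK kinases, followed no single direction, with 6 of 19 higher, 8 lower and 5 not past the threshold (median -0.45). Both copies of PDPK1, the kinase that activates Akt, fell, with log2 fold changes of -1.18 ± 0.13 (ENSDARG00000062304) and -0.58 ± 0.10 (ENSDARG00000018285). foxo3a, a FoxO transcription factor that Akt keeps out of the nucleus, fell from 234.3 ± 16.1 to 90.9 ± 18.1 CPM (log2 fold change -1.37 ± 0.12, edgeR adjusted p = 3.34e-08), whereas FOXO4 rose from 41.6 ± 4.33 to 99.5 ± 27.3 (1.26 ± 0.15). Larger falls were seen in foxo6a (-3.67 ± 0.39) and foxo6b (-3.1 ± 0.39), and foxo3b fell by less (-0.45 ± 0.11). A copy of FOXO1 (ENSDARG00000099555) rose by 1.36 ± 0.27. GSK3A (ENSDARG00000029501), a kinase that Akt inhibits, fell from 38.0 ± 2.71 to 19.0 ± 2.55 CPM. Its more abundant copy (GSK3A ENSDARG00000015681) was called higher, at 127.9 ± 8.34 CPM in normal brain and 162.2 ± 50.6 in tumors (log2 fold change 0.34 ± 0.15, edgeR adjusted p = 0.0452). That call was lost with median-ratio factors (0.14, adjusted p = 0.385) and held in only 2 of the 15 fits that left out 1 library, whereas the copy that fell was called lower in all 15. TBC1D1, a Rab GTPase-activating protein, rose by 2.20 ± 0.36 with a wide spread among tumors. It had 6.58 to 10.3 CPM in normal brain (median 7.35) and 12.9 to 75.1 in tumors (median 21.2). The 5 that did not pass were sgk1, SGK2, sgk2b, the other copy of FOXO1 (ENSDARG00000061549) and akt1s1, the mTORC1 inhibitor PRAS40. Genes that FoxO factors induce in mammals were higher in 5 and lower in 6 of 13 tested cases (median -0.43). The filter left out trim63a, which had 0.0 to 0.205 CPM in normal brain and 0.354 to 9.35 in tumors. Its copy trim63b, among the higher, spread from 0.218 to 7.74 CPM in tumors. CCNG2, a cyclin of cell cycle arrest, rose by 1.41 ± 0.13 and PINK1, a kinase of mitochondrial quality control, fell by 1.38 ± 0.13, while CITED2 and FBXO32 did not pass.

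**Figure D3:**
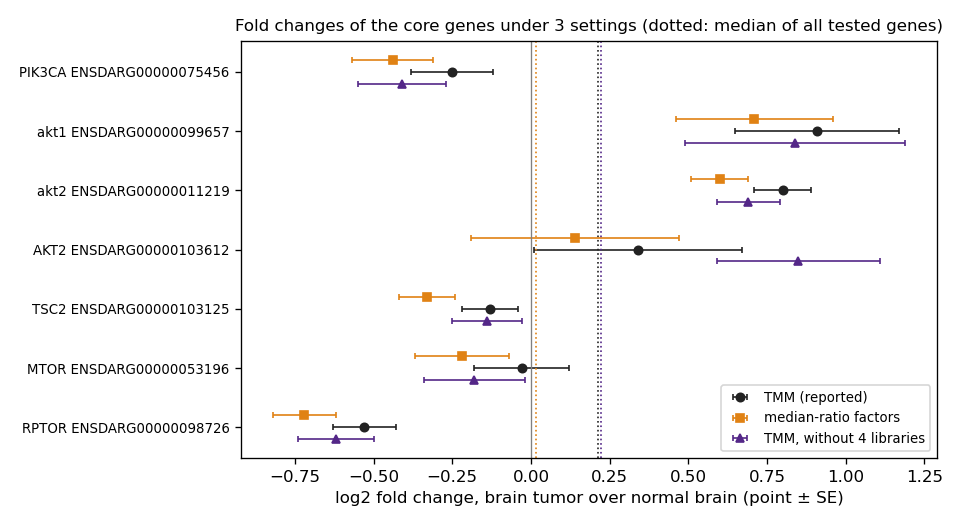
Log2 fold change of each core gene ID, tumor over normal brain, with its SE, in the reported fit, with median-ratio factors and without 4 libraries that carried other tissues or stood apart. Dotted lines mark the median of all tested genes in each fit, 0.21 in the reported one and 0.02 with median-ratio factors. RPTOR at -0.53 stays below 0 in the 3 fits, and akt1 and akt2 copy 1 stay above.

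TSC2 is the subunit of the TSC complex with the GTPase-activating domain that holds Rheb inactive. It ranged from 53.1 to 66.7 CPM in normal brain (median 62.0) and from 46.5 to 69.9 in tumors (median 56.0). Brain tumors 8, 13 and 14 lay below each normal brain and brain tumor 6 lay above. The log2 fold change of -0.13 ± 0.09 did not pass (edgeR adjusted p = 0.226), and it was -0.34 relative to the median gene. It passed with median-ratio factors (-0.33, adjusted p = 0.00331), without normal brain 1 (-0.24, adjusted p = 0.0463) and without normal brain 4 (-0.25, adjusted p = 0.0267).

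MTOR encodes the kinase of both mTOR complexes, and RPTOR encodes raptor, the scaffold that presents substrates to it in mTORC1. MTOR ranged from 90.4 to 108.9 CPM in normal brain (median 101.8) and from 55.6 to 146.4 in tumors (median 102.4). Brain tumors 7 and 12 lay below and brain tumors 6 and 13 above each normal brain. The log2 fold change was -0.03 ± 0.15 (edgeR adjusted p = 0.882), with a 95% interval of -0.31 to 0.26, and it was -0.24 relative to the median gene. RPTOR ranged from 41.5 to 49.8 CPM in normal brain (median 45.4) and from 22 to 37.7 in tumors (median 31.9). All 7 tumors lay below all 8 normal brains, and the log2 fold change was -0.53 ± 0.10 (adjusted p = 0.000147), or -0.74 relative to the median gene.

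The FPKM ratio of RPTOR to MTOR was 0.562 in normal brain and 0.407 in tumors (log2 difference -0.47, exact permutation test, p = 0.00886, adjusted 0.0159), and 6 of 7 tumors lay below each normal brain, while brain tumor 7 lay above them. Without the 4 libraries the difference was -0.42 and did not pass (exact permutation test, adjusted p = 0.0974). RICTOR, the scaffold of mTORC2, fell in both copies, with log2 fold changes of -0.63 ± 0.10 (ENSDARG00000100867) and -0.46 ± 0.10 (ENSDARG00000002020), and both were below each normal brain in all 7 tumors. The ratio of RPTOR to RICTOR was 0.44 in both groups (log2 difference 0.00, exact permutation test, adjusted p = 0.984), with log2 values of -1.47 to -0.90 in tumors and -1.30 to -1.07 in normal brain.

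Of 12 tested partners of mTOR and TSC, 4 were higher (rhebl1, TTI1, telo2 and MAPKAP1), 3 lower (both RICTOR copies and rheb) and 5 not past the threshold (DEPTOR, MLST8, tti2, PRR5 and TBC1D7). The Rheb GTPases diverged. rhebl1 rose from 22.2 ± 3.1 to 89.2 ± 19.0 CPM (log2 fold change 2.01 ± 0.14, edgeR adjusted p = 2.5e-09) and rheb went from 41.0 ± 2.04 to 29.4 ± 8.51 (-0.48 ± 0.14, adjusted p = 0.0059). TTI1, which helps assemble mTOR complexes, rose from 7.9 ± 1.28 to 15.8 ± 1.9 CPM.

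Genes that report amino acids to mTORC1 at the lysosome were mostly higher, 19 of 26 against 2 lower and 5 not past the threshold. Of all tested genes 43.5% were higher and 33.4% lower. The list had a median of 0.72, where all genes had 0.21. It was not split by whether a gene promotes or restrains mTORC1, and DEPDC5 (0.74), NPRL2 (0.72) and NPRL3 (0.53) were among the higher. With median-ratio factors 16 were higher and 4 lower, where 7264 of all 19260 tested genes were higher and 7252 lower. Without brain tumor 8 the lower count was also 4, where 6826 of all 19439 tested genes were lower. SEH1L, a subunit of the GATOR2 complex and of the nuclear pore, rose from 36.5 ± 1.59 to 161.6 ± 42.5 CPM (log2 fold change 2.14 ± 0.13, edgeR adjusted p = 8.4e-10), and FNIP2, a folliculin partner, rose by 1.84 ± 0.17. The lower genes were CASTOR2, of the family of arginine sensors (-0.95 ± 0.17), and sesn3, a sestrin (-0.62 ± 0.19), and SESN1, sesn2, castor1, FNIP1 and LAMTOR3 did not pass. Energy and stress inputs to the TSC complex, genes of LKB1 and AMPK among them, split, with 6 of 15 higher and 7 lower. DDIT4 and CAB39L did not pass the threshold, and the list median was -0.21. The AMPK gamma subunit PRKAG1 rose by 1.63 ± 0.10 and the LKB1 partner STRADB by 1.80 ± 0.14, whereas the AMPK subunits PRKAB1 (ENSDARG00000044183, -1.75 ± 0.13) and PRKAA2 (-1.59 ± 0.17) fell. Copies of AMPK subunits went opposite ways. The scarcer PRKAB1 copy (ENSDARG00000046143) was called higher, with 20.3 ± 1.83 CPM in normal brain and 29.6 ± 9.7 in tumors (0.55 ± 0.16, edgeR adjusted p = 0.0051), although not with median-ratio factors (0.35, adjusted p = 0.0606) or by DESeq2 (0.35, adjusted p = 0.0567). Of the gamma subunit copies PRKAG2 was lower (-2.02), from 62.8 ± 5.64 to 15.5 ± 6.89 CPM. The scarce prkag2b was higher (1.11), from 0.992 ± 0.245 to 2.14 ± 0.609 CPM.

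**Figure D4:**
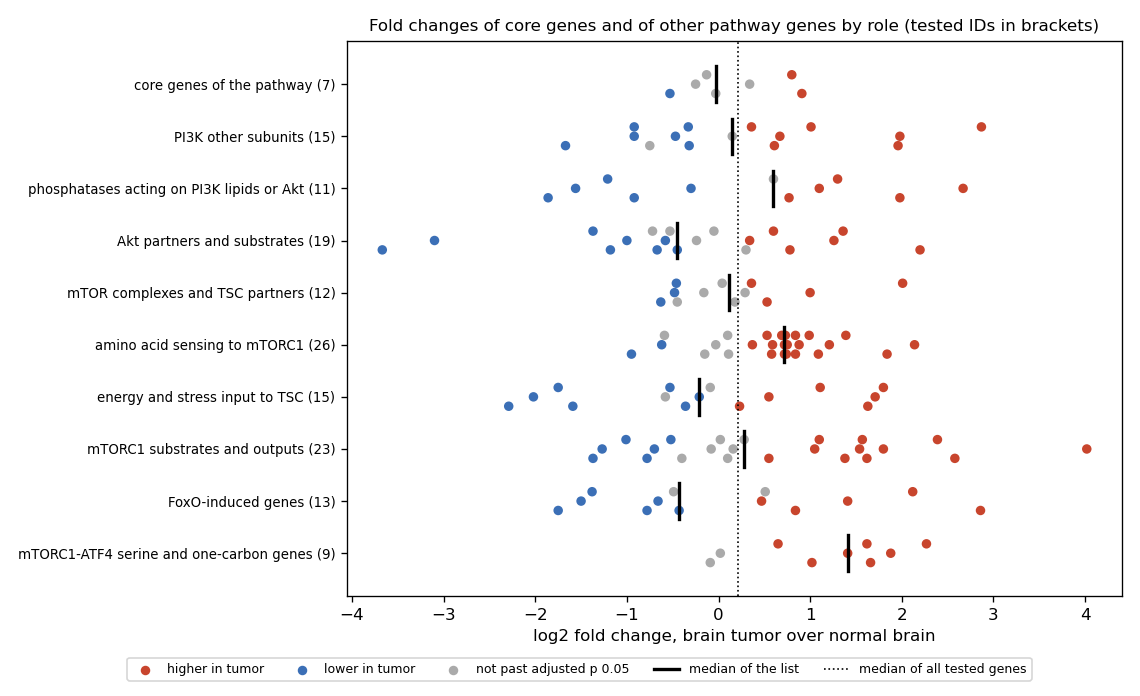
Log2 fold change, tumor over normal brain, of every tested core gene and of other pathway genes by role; each dot is a gene ID, black bars are list medians and the dotted line is the median of all tested genes (0.21). Amino acid sensing genes (median 0.72) and serine and one-carbon genes (median 1.41) lie mostly to the right, while the 7 core gene IDs stay within 1 unit of 0.

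Among tested genes of these lists the largest log2 fold change was that of TFEB, a substrate of mTORC1. TFEB, a transcription factor of lysosome genes that mTORC1 keeps in the cytoplasm, ranged from 5.95 to 8.09 CPM in normal brain (median 6.82) and from 87.5 to 131.4 in tumors (median 115.7). This was a 16.2-fold rise (log2 fold change 4.02 ± 0.12, edgeR adjusted p = 2.59e-12) with little spread among tumors. RPS6, the ribosomal protein that S6 kinase phosphorylates, rose from 303.1 ± 25.8 to 1593.9 ± 268.1 CPM (2.39 ± 0.11). ULK1 (ENSDARG00000074481), the kinase that starts autophagy, fell from 79.1 ± 4.02 to 30.5 ± 4.61 CPM (-1.37 ± 0.09), while its copy ulk1a did not pass. The copies of PDCD4, an inhibitor of translation initiation, diverged. PDCD4 (ENSDARG00000041022) fell from 83.6 ± 8.96 CPM by 1.27 ± 0.12 on the log2 scale, and pdcd4a rose from 53.8 ± 3.41 to 111.1 ± 29.1 CPM (1.05 ± 0.14, edgeR adjusted p = 3.68e-06), above each normal brain in all 7 tumors. The copies of S6 kinase 1 likewise diverged, rps6kb1a being lower (-0.70) and rps6kb1b higher (1.57). In all, 11 of 23 mTORC1 substrates and outputs were higher, 6 lower and 6 not past the threshold, with a median of 0.28. Of all tested genes 43.5% were higher and 33.4% lower. This list, too, was not split by whether a gene promotes or restrains translation. Among the higher were eif4ebp1 (1.62), eif4ebp3 (2.58) and EIF4EBP3 (1.80), while EIF4EBP2 did not pass. Serine and one-carbon synthesis genes, which mTORC1 raises through ATF4 in mammals, were higher in 7 of 9 cases and lower in none (median 1.41), with ALDH18A1, an enzyme of proline synthesis, at 1.62 ± 0.15, while atf4b itself and mthfd2 did not pass. By DESeq2 none of the 9 was lower either, and none had an unadjusted p under 0.05 in that direction by edgeR. The markers of dividing cells were higher in the same tumors, and their part in these lists was not tested. Neuronal markers were lower in these tumors, and the part of neurons in the falls of all the lists was not tested either.

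Tumors varied more than normal brains. The coefficient of variation of CPM was larger in tumors for 6 of 7 core IDs, the exception being akt2 copy 2, and for 90.8% of all tested genes. Its median over the 7 was 6.95% in normal brain and 21.9% in tumors. Brain tumor 13 was the highest tumor in 4 of the 7 and brain tumor 12 the lowest in 4. Both counts depend on the scaling. Brain tumor 13 had a TMM factor of 0.8237, and with library size alone it was highest in 1 and brain tumor 6 in 4. With library size alone brain tumor 12 was the lowest in 3. By the TMM-scaled CPM the zebrafish NRAS gene was also highest in brain tumor 13.

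The genes with profiles most like that of akt1, the core gene with the highest fold change, were sought over the 15 libraries by the root mean square difference of log2 CPM after centring each gene on its own mean. They were socs9 (0.28), PUDP (0.29) and CLASP2 (0.29), where the median gene differed by 0.86. Their fold changes were 0.72, 0.88 and 0.86 on the log2 scale. Values near that of akt1 follow from the choice, since the profiles span both groups.

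In the authors' deposited table, the log2 fold change was -0.73 for RPTOR, -0.45 for PIK3CA and -0.33 for TSC2, each with an adjusted p below 0.05. It was 0.60 for akt2 copy 1 and 0.70 for akt1 in the authors' deposited table, both also past that threshold.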

How the data were processed

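Per the labels' protocols, RNA from stored tissue was purified with RNeasy kits, and TruSeq libraries were made after oligo dT selection. The submitters' processing notes name DESeq2 and Novoalign 2.08.01, with no role stated. No source used here gives the read counter, strand setting, build or annotation, so reads of near-identical paralogs could have been split between copies. The deposited table holds raw read counts per gene, the authors' FPKM values (per length and column total, checked against the counts), the authors' log2 fold change and the authors' adjusted p-value, per the file headers. Symbols came from a table of gene IDs that matched 20915 of 22513 IDs.

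Counts were analysed with edgeR 4.0.16 in R 4.3.3. The filter filterByExpr (minimum count 10, minimum total 15) left 19260 genes, which were scaled by TMM and fitted with the group as the only term. CPM uses the scaled sizes, the SE is the absolute log2 fold change over the square root of F, the interval is the estimate ± 1.96 SE, and likeness used log2 CPM with a prior count of 2. FPKM ratios were compared by exact permutation of libraries, adjusted over 9 ratios. Only 4 of these ratios are reported. Alternatives were 3 other scalings, no filter, DESeq2 1.42.0, limma-voom (limma 3.58.1), glmTreat at 1.5-fold, subsets of libraries and leaving out each in turn. Groups came from sample titles, the labels give no batch, and no 2 libraries were identical. The code was tested on simulated data. The members and 9 further lists were chosen with earlier results of these data known, and 147 of 154 list symbols were found. Of 12 IDs that the rule for the members gave, 5 are not reported here, and counts of core and list genes leave them out. Named genes were all core genes reported, the 2 smallest p per direction in each list (1 in the last 2 lists), and genes that describe a count of 5 or fewer. PIK3CG, PIK3R1, the PDPK1 copies, DEPDC5, NPRL2, NPRL3, foxo3b, foxo6a, foxo6b and FOXO1 were named after their values were seen. So were trim63a, trim63b, eif4ebp1, EIF4EBP2, eif4ebp3, EIF4EBP3 and other copies that diverged from a named gene.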

Additional observations from a re-analysis of the deposited data

Results flagged for a closer look

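In 4 of 22 groups of libraries, 1 library stood apart from the others of its group by Dixon's test at the 95% level, which chance does in about 1 in 20 groups. For akt2 copy 1, normal brain 4 was the lowest at a log2 CPM of 5.98, where the other normal brains had 6.16 to 6.33. For akt2 copy 2, normal brain 1 was the highest at 4.20, where the others had at most 2.77. For RPTOR, brain tumor 12 was the lowest tumor at 4.47 against 4.95 to 5.24. The log2 FPKM ratio of RPTOR to MTOR was highest in brain tumor 7, at -0.46 against -1.64 to -1.23 in the other tumors.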

How the results depend on the processing

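akt2 copy 1 kept its direction and call in every alternative run, leaving out each library included. With median-ratio factors and with DESeq2 PIK3CA (-0.44) and TSC2 (-0.33) gained a call, so that 3 core genes were lower, and 4 amino acid sensing genes were lower. PIK3CA also gained it with library size alone (-0.37), under upper-quartile scaling (-0.27) and without the 4 libraries (-0.41), each with 2 core genes lower. Over all genes, 6826, 6494 and 6216 were lower in these fits, in the same order. Without the 4 libraries akt2 copy 2 (0.85) gained a call too. Libraries 1 to 8 left 1 lower amino acid sensing gene. Libraries 9 to 15 lost akt1 (0.32) and gained PIK3CA (-0.41) and TSC2 (-0.41), leaving 1 higher and 3 lower core genes and 2 higher mTOR partners. Over all genes, libraries 1 to 8 had 7101 higher and 5781 lower of 19296 tested. Libraries 9 to 15 had 6350 higher and 5846 lower of 19605. The lower genes numbered 7252 with median-ratio factors and 7447 by DESeq2.

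Against a fold of 1.5 (glmTreat), akt1 (0.91) and RPTOR (-0.53) did not pass, leaving 1 higher and 0 lower core genes. Of all 19260 tested genes 5965 were higher and 5010 lower in that test, fewer than the 8370 and 6436 of the reported fit. In it the PI3K list had 4 higher and 3 lower, Akt partners 5 lower, and mTOR partners 2 higher and 0 lower. Amino acid sensing had 11 higher and 1 lower, energy and stress input 4 lower, mTORC1 outputs 3 lower, and the FoxO list 3 higher and 3 lower.

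Ratios lost their call without the 4 libraries for RPTOR to MTOR (-0.42) and PIK3CA to PIK3R1 (0.42). In libraries 1 to 8 and 9 to 15 RPTOR to MTOR gave -0.31 and -0.68, and PIK3CA to PIK3R1 0.70 and 0.78. These subsets allow only 70 and 35 splits, with a smallest p of 0.0286, so that missing the threshold over 9 ratios says little. PIK3CA to PIK3R1 reached that smallest p in both subsets (exact permutation test, adjusted p = 0.0643). The uncalled ratio of akt1 to akt2 turned to -0.02 without the 4 libraries and -0.36 in libraries 9 to 15. That of RPTOR to RICTOR turned to 0.13 in libraries 9 to 15, 0.01 from counts plus 0.5 and 0.00 from FPKM plus 0.1. The cause of these shifts was not tested.

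With each library left out in turn, the log2 fold change ranged from -0.38 to -0.16 for PIK3CA, 0.16 to 0.63 for akt2 copy 2, -0.15 to 0.08 for MTOR and -0.25 to -0.09 for TSC2. The lower core genes ranged from 1 to 3 and the higher ones from 2 to 3. Over all genes the lower count ranged from 6240 to 6903 and the higher from 7561 to 8485. The ratio of akt1 to akt2 ranged from -0.17 to 0.18 and that of RPTOR to RICTOR from -0.05 to 0.05, and the lower amino acid sensing genes from 2 to 4. No paired analysis was possible because no number occurs in both groups. akt2 copy 2 was scarce, with 67 to 267 counts in normal brain, the highest in normal brain 1. The part of depth in its result was not tested.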
